A study of Arabidopsis thaliana with 56 samples.

Results

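The 8 genes described here encode enzymes that break down the branched-chain amino acids leucine, isoleucine and valine, and they were picked out of the 33016 genes of the count tables by their gene identifiers. They are BCAT2 (AT1G10070), BCKDH E1A1 (AT1G21400), DIN4 (AT3G13450), DIN3 (AT3G06850), IVD (AT3G45300), MCCA (AT1G03090), MCCB (AT4G34030) and HML1 (AT2G26800). BCAT2 was listed for its induction by the TFs ABF1 and ABF3 in these same data, so the members were chosen by values of the ABF1 and ABF3 comparisons, and these values are given below as a description with no test for any of the 8 genes.

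Breakdown of a branched-chain amino acid starts with an aminotransferase, which turns it into a 2-oxo acid. The mitochondrial branched-chain 2-oxo acid dehydrogenase complex (BCKDH) then removes a carbon and makes an acyl-CoA. For leucine, isovaleryl-CoA dehydrogenase, methylcrotonyl-CoA carboxylase and HMG-CoA lyase carry the carbon skeleton on to acetoacetate and acetyl-CoA. In plants this pathway feeds electrons to respiration when sugar is short, and several of its genes are known to rise in the dark, under drought and in response to the hormone abscisic acid (ABA).

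The TARGET assay measures which genes respond to the entry of a TF into the nucleus of isolated root cells. Protoplasts, plant cells without walls, came from roots of Col-0 seedlings aged 10 d and carried either the empty vector (EV) or a plasmid for 1 TF. Every group, EV included, received 35 µM cycloheximide (CHX), which blocks translation, and 10 µM dexamethasone (DEX), which brings the TF into the nucleus, and transfected cells were sorted by their fluorescent marker. The 56 libraries form 19 groups in 3 batches. EV was present in each batch, beside ZAT6, HSFA6A, FBH3 and ABF1 in batch 1, WRKY33, MYBR1, MYB3, HSFA6A, GBF2 and DIV2 in batch 2, and HB7, GBF3, GBF2, FBH3, DREB2A and ABF3 in batch 3. Each group had 3 libraries, apart from ABF3 with 2, which makes 9 EV and 47 TF libraries. Replicates were separate wells filled from a shared transfection, so that p-values reflect the spread between wells and not between transfections. The TF was produced from a plasmid, and which of the RFP and GFP markers a library carried was not used here.

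Counts per library, without 4 loci that lie beside the nuclear ribosomal RNA genes, ran from 5603969 to 23463910. Those 4 loci took from 1% to 78.14% of a library. The gene of the transfected TF was above every EV library of its batch for 13 of 13 TFs. Of 9 root marker genes, SCR, a regulator of the root ground tissue, and PHO1, a phosphate exporter of the stele, were counted in all 56 libraries, whereas COBL9, a root hair gene, was at 0 in 47, WER, an epidermal regulator, in 30 and PLT1, a root tip regulator, in 28. The 5 green tissue markers summed to at most 2.05 CPM, that is counts scaled to a common library size, in any library.

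An upstream sequence is shown for BCAT2, the member with the largest fold changes under ABF1 and ABF3, because ABF proteins are known to bind ABA-responsive elements whose core is ACGTG. The TAIR10.1 reference was searched on both strands over 500 bases upstream of each annotated start. The words ACGTGGC and ACGTGTC were each found once upstream of BCAT2, beginning 462 and 169 bases before the start, and ACGTGGC was found once upstream of DIN4, beginning 56 bases before the start. In 27443 promoters of protein-coding genes of the same length, ACGTGGC was present in 4.72% and ACGTGTC in 5.36%. The upstream window of DIN4 overlaps the gene AT3G13460. The windows of 30 bases below run 5′ to 3′ along the strand of the gene, with the word or its reverse complement in capitals, and lie at chr1:3287614-3287643 (plus strand), chr1:3287907-3287936 (plus strand) and chr3:4384474-4384503 (minus strand).
BCAT2 distal: ctcttggtccaACGTGGCtttcacatcact
BCAT2 proximal: agtttcagaaaGACACGTctagatctgtct
DIN4: tgtctgatctgACGTGGCtagatagcttct

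The longer stretch just before the BCAT2 start, chr1:3287787-3288086 on the plus strand, holds the proximal word alone, again in capitals.
BCAT2 upstream: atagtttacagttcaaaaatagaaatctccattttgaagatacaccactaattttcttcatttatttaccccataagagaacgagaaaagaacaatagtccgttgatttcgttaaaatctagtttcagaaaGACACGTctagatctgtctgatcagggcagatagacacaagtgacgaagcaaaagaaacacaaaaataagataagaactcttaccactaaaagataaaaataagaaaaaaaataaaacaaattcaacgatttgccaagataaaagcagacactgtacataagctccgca

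Neither ABA word was found upstream of BCKDH E1A1, DIN3, IVD, MCCA, MCCB or HML1, and the G-box word CACGTG, present in 9.35% of all promoters, was found upstream of none of the 8 genes. The word GATAAG, an I-box core that some MYB-related proteins are known to bind, was found upstream of BCAT2, DIN4, DIN3, IVD and MCCB, and in 22.45% of all promoters. It was not found upstream of BCKDH E1A1, MCCA or HML1. Further words searched were CCGAC (BCAT2, MCCA and MCCB, 21.41% of all promoters) and ACTCAT (HML1, 24.32%). AATNATT was found upstream of BCKDH E1A1, DIN4, IVD and MCCA (49.53%), and TTGAC upstream of every member but DIN3 (67.44%). The window of MCCB overlaps the gene AT4G34020. A match is a description of the letters and not of binding.

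In EV cells all 8 genes were expressed at low to moderate levels, and their levels can be compared with each other only per kb of annotated exon. HML1, which encodes the HMG-CoA lyase of the last step of leucine breakdown, had the highest level at 12.6 ± 1.89 CPM per kb (SD, n = 9). MCCA and MCCB, the biotinylated and the other subunit of methylcrotonyl-CoA carboxylase, stood at 7.26 ± 1.43 and 5.07 ± 0.776 CPM per kb (SD, n = 9). IVD, which encodes isovaleryl-CoA dehydrogenase, had 6.59 ± 2.51 CPM per kb (SD, n = 9), the widest spread of the 8.

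The aminotransferase and the BCKDH subunits were lower. DIN3, the acyltransferase (E2) subunit, had 4.54 ± 0.971 CPM per kb (SD, n = 9), BCAT2, a branched-chain aminotransferase, 3.40 ± 0.947, and DIN4, a beta subunit of the E1 component, 3.23 ± 1.08. BCKDH E1A1, an alpha subunit of E1, had the lowest level at 1.15 ± 0.429 CPM per kb (SD, n = 9). The ranges of the 9 EV libraries overlapped for all 7 neighbouring pairs in the order HML1, MCCA, IVD, MCCB, DIN3, BCAT2, DIN4 and BCKDH E1A1. In counts, BCKDH E1A1 had under 10 reads in 4 of the 56 libraries and no other member did in any, so its values are the least precise.

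**Figure D1:**
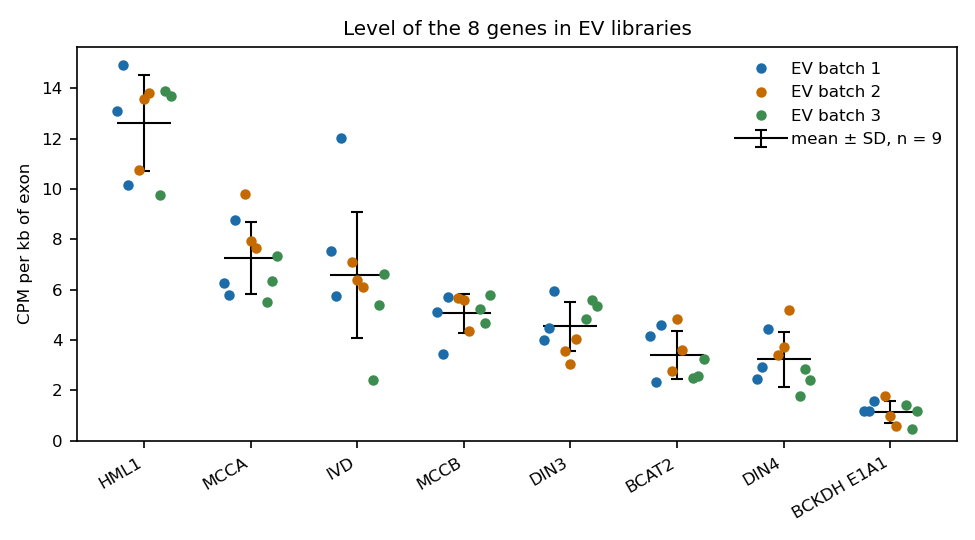
Level of the 8 genes in the 9 EV libraries, in CPM per kb of exon on a linear axis, with points coloured by batch and bars for the mean ± SD. HML1 stands at 12.6 CPM per kb and BCKDH E1A1 at 1.15, and neighbouring genes overlap in their libraries.

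The 3 EV batches were compared to see how far control levels moved without a TF. None of the 8 genes passed between EV batches (edgeR quasi-likelihood F test, FDR from 0.276 for DIN3 to 0.993 for HML1), beside 11.7% of all 18732 genes tested. With so few genes, 0 calls lies near that share, and nothing particular to the 8 is read from it. IVD had the largest estimated difference, with a log2 difference of -0.79 in batch 3 against batch 1, and its 3 EV libraries of batch 3 stood at 3.94, 8.82 and 10.8 CPM against 12.3, 9.40 and 19.6 in batch 1.

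ABF1 and ABF3, bZIP proteins that act in ABA responses, gave the values on which BCAT2 was listed. BCAT2 stood at 18.5, 22.9 and 15.8 CPM in the ABF1 libraries and at 7.30, 4.08 and 8.08 in EV of the same batch. It stood at 17.1 and 18.1 CPM in the ABF3 libraries and at 4.37, 4.53 and 5.67 in EV of their batch. Every ABF1 and ABF3 library was therefore above every EV library of its batch, with log2 fold changes of 1.55 (SE 0.29) for ABF1 and 1.87 (SE 0.32) for ABF3.

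The 2 members that encode E1 subunits of BCKDH had higher values in the ABF3 libraries than in EV. BCKDH E1A1 was at 9.70 and 7.83 CPM with ABF3 against 4.23, 1.36 and 3.53 in EV, a log2 fold change of 1.56 (SE 0.51). DIN4 was at 5.66 and 8.0 CPM against 2.39, 3.85 and 3.27 in EV, a log2 fold change of 1.11 (SE 0.39). For both genes the ABF3 libraries lay above EV without overlap, while with ABF1 the log2 fold changes were 0.48 (SE 0.46) and 0.41 (SE 0.35). E1 has other genes outside the members. With ABF3, BCKDH E1A2 had a log2 fold change of -0.34 (SE 0.33) and BCKDH E1B1 of 0.85 (SE 0.43). With ABF1 these were 0.14 (SE 0.28) and -0.69 (SE 0.59).

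DIN3, the E2 subunit of the same complex, had values of the opposite sign to those of BCKDH E1A1 and DIN4. It was at 6.71 and 7.18 CPM with ABF3 against 9.51, 10.9 and 10.5 in EV, so that both ABF3 libraries were below EV, with a log2 fold change of -0.56 (SE 0.27). With ABF1 it was at 7.93, 5.27 and 3.78 CPM against 7.83, 8.78 and 11.7, a log2 fold change of -0.73 (SE 0.28). The ABF1 and EV libraries overlapped for DIN3.

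In the leucine branch the ABF3 values were mixed. IVD stood at 18.4 and 13.5 CPM with ABF3 against 3.94, 8.82 and 10.8 in EV, a log2 fold change of 1.01 (SE 0.37), and at a log2 fold change of -0.12 (SE 0.33) with ABF1. MCCA had a log2 fold change of 0.48 (SE 0.22) with ABF3, and MCCB and HML1 had 0.16 (SE 0.24) and 0.22 (SE 0.23) with overlapping libraries. In all, 5 of the 8 genes had both ABF3 libraries above every EV library of the batch, beside 14.3% of the 20067 genes tested, and 2 of 8 did with ABF1, beside 7.69% of 19182 genes. The median log2 fold change of the 8 was 0.75 with ABF3 and 0.20 with ABF1, against 0.00 and -0.01 over all genes tested. BCAT2 and thereby the list were chosen on these comparisons, and nothing is read from the counts.

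**Figure D2:**
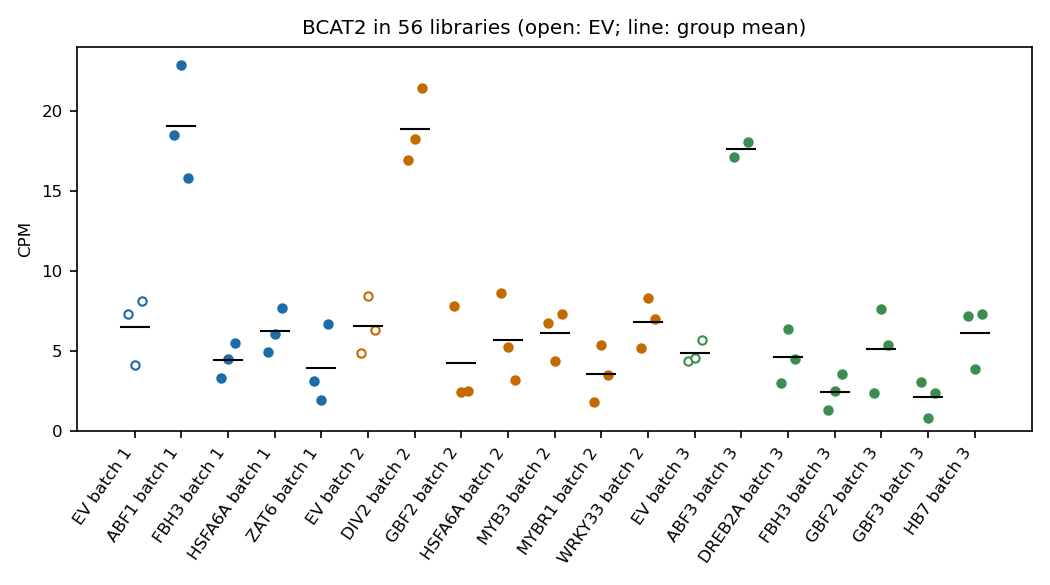
BCAT2 in CPM on a linear axis in all 56 libraries, by group, with open points for EV, filled points for TFs, colours for the batches and lines for group means. The 8 libraries of ABF1, ABF3 and DIV2 lie between 15.8 and 22.9 CPM, and the other 48 between 0.811 and 8.59.

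Across the 19 groups, BCAT2 thus had its highest means with ABF1 (19.1 CPM), DIV2 (18.8) and ABF3 (17.6), whose libraries overlapped with each other and with no library of the other 16 groups. DIV2 is a MYB-related TF that the listing of BCAT2 did not name. Among the other 11 TFs, which were tested with edgeR against EV, 5 of 88 combinations of gene and TF passed an FDR of 0.05, all of them with DIV2 or FBH3, beside 7.21% of the combinations of all genes tested and the same TFs. Nothing particular to the 8 genes is read from that count.

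DIV2 raised 2 of the 8 genes and lowered 1. BCAT2 stood at 16.9, 18.2 and 21.4 CPM in the DIV2 libraries and at 4.83, 8.44 and 6.28 in EV of the same batch. Every DIV2 library lay above every EV library, and the rise was 2.88-fold (log2 fold change 1.53, SE 0.29, edgeR FDR = 0.00129).

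DIN3 rose by about as much. It stood at 20.2, 18.8 and 20.5 CPM with DIV2 and at 7.01, 5.97 and 7.92 in EV, without overlap, which is a 2.85-fold difference (log2 fold change 1.51, SE 0.22, edgeR FDR = 0.000124). The ABF1 and ABF3 values of DIN3 were negative, as given above, and the difference between TFs was not tested. Over all 18899 genes tested with DIV2, 8.71% were higher and 9.37% were lower.

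MCCA fell with DIV2. It stood at 12.6, 10.3 and 12 CPM against 26.9, 21.7 and 21.0 in EV, again without overlap, and was at 0.502 of the EV level (log2 fold change -0.99, SE 0.21, edgeR FDR = 0.0025). Every other TF of batch 2 also had a negative MCCA value, from -0.35 (WRKY33, all libraries below EV) to -0.44 (MYB3). For GBF2 and HSFA6A, the values of their batch 2 libraries were -0.36 and -0.38. Against the other TF libraries of the batch, MCCA with DIV2 was at -0.62 (edgeR FDR = 0.0452). The part of the shared EV group in these values was not tested. The partner subunit MCCB was at 10.9, 8.06 and 2.74 CPM with DIV2 against 12.4, 12.2 and 9.55, with overlap and an FDR of 0.276.

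The remaining members did not pass the test with DIV2. BCKDH E1A1 had 9, 21 and 0 counts in the DIV2 libraries, that is 0.724, 1.71 and 0 CPM, against 5.30, 2.94 and 1.77 CPM in EV. All DIV2 libraries were below EV, but the estimate was imprecise (log2 fold change -2.05, SE 0.86, edgeR FDR = 0.125). Without DIV2 replicate 2 the log2 fold change was -3.25 and passed (FDR = 0.0463). IVD, DIN4 and HML1 had log2 fold changes of 0.31 (SE 0.33), -0.13 (SE 0.41) and -0.09 (SE 0.19). The median of the 8 genes was -0.11.

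Other genes of the same metabolism were also called with DIV2, beside 9.37% of all genes tested lower and 8.71% higher. Whether these lists exceed those shares was not tested. Of 16 tested genes of a list of further breakdown enzymes, 4 were lower and 0 higher. They were BCKDH E1B1, the other beta subunit gene of E1 (log2 fold change -1.84, SE 0.48), ALDH6B2, a dehydrogenase of valine breakdown (-0.77, SE 0.20), LPD2, a lipoamide dehydrogenase of mitochondria (-0.56, SE 0.14), and D2HGDH, which passes electrons to the same carrier as IVD (-0.54, SE 0.15), with edgeR FDR between 0.00823 and 0.0172. Among 13 tested synthesis genes, OMR1, the threonine deaminase that starts isoleucine synthesis, rose (0.89, SE 0.25, FDR = 0.0223), as did DHAD, dihydroxyacid dehydratase (0.61, SE 0.19, FDR = 0.0365), and AIP1, a regulatory subunit of acetohydroxyacid synthase, fell (-1.05, SE 0.23, FDR = 0.0046).

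Of 11 bZIP and SnRK1 kinase genes that are known regulators of the starvation response, 2 rose with DIV2, beside 8.71% of all genes tested. They were bZIP44 (log2 fold change 1.45, SE 0.21, edgeR FDR = 0.000108) and bZIP1 (1.18, SE 0.15, FDR = 3.71e-05). Of 5 further dark-inducible genes, DIN10, a raffinose synthase-like gene, rose (0.86, SE 0.13, FDR = 0.00012). The 9 root markers summed to between 31.3 and 36.1 CPM in the DIV2 libraries and to between 48.7 and 58.4 CPM in EV of batch 2, and of 6 tested, CASP1, an endodermal gene, was lower (-1.86, FDR = 0.00935) and the others did not pass. In such mixtures, fewer cells of a type and less RNA per cell cannot be told apart, and the part of the markers in the DIV2 responses was not tested.

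**Figure D3:**
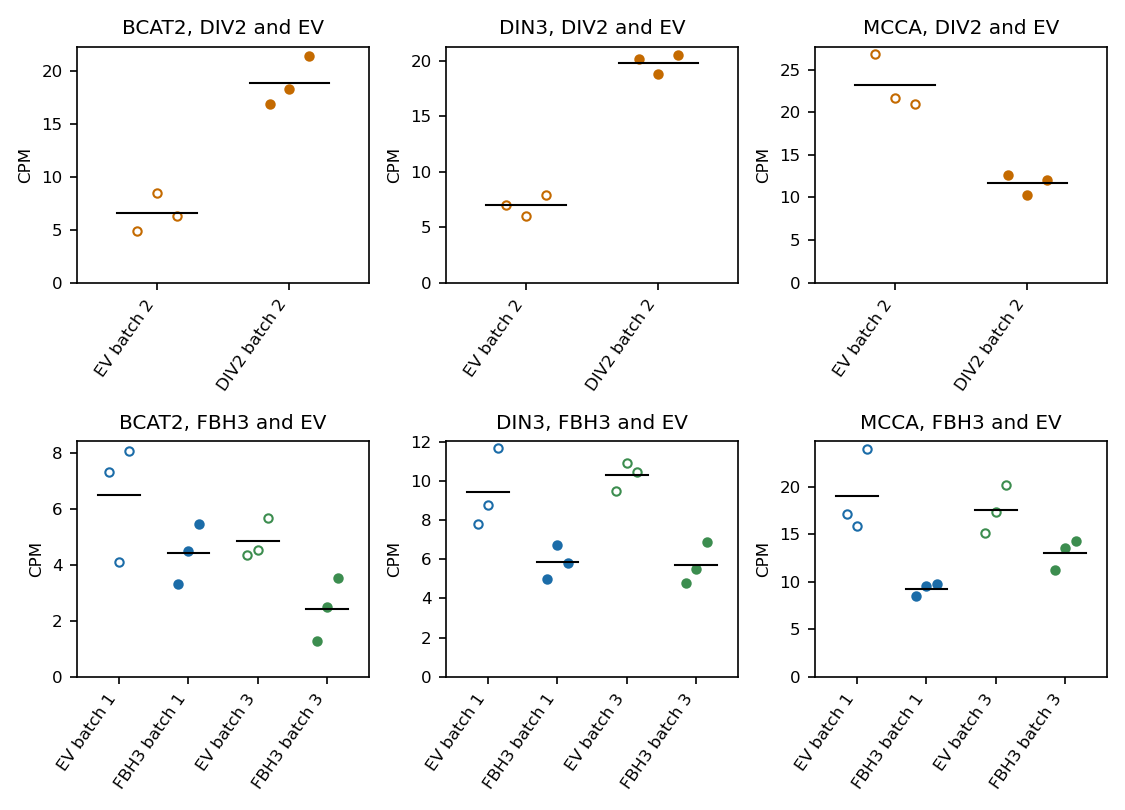
BCAT2, DIN3 and MCCA in CPM on linear axes in DIV2 libraries and EV of batch 2 (top) and in FBH3 libraries and EV of batches 1 and 3 (bottom), with open points for EV and lines for means. DIV2 libraries lie above EV for BCAT2 and DIN3 and below for MCCA, and FBH3 libraries lie below EV in both batches for DIN3 and MCCA.

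FBH3, a bHLH TF assayed in batches 1 and 3, lowered DIN3 and MCCA and raised none of the 8 genes. Over all 18459 genes tested, 6.34% were higher and 3.77% were lower. DIN3 stood at 5.01, 6.75 and 5.80 CPM with FBH3 in batch 1 against 7.83, 8.78 and 11.7 in EV, and at 4.78, 5.52 and 6.87 CPM in batch 3 against 9.51, 10.9 and 10.5. All 6 FBH3 libraries were below EV of their batch, and DIN3 was at 0.585 of the EV level (log2 fold change -0.77, SE 0.18, edgeR FDR = 0.00744).

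MCCA stood at 8.45, 9.50 and 9.74 CPM with FBH3 in batch 1 against 17.1, 15.8 and 24.0 in EV, and at 11.2, 13.6 and 14.3 CPM in batch 3 against 15.1, 17.4 and 20.2. Again no FBH3 library reached an EV library, and MCCA was at 0.601 of the EV level (log2 fold change -0.73, SE 0.16, edgeR FDR = 0.00396). Against all 9 EV libraries, the FBH3 libraries of batch 1 alone gave -1.01 (SE 0.21, FDR = 0.00821) for MCCA. Those of batch 3 alone gave -0.43 (SE 0.20, FDR = 0.305). For DIN3 the values were -0.66 (SE 0.26, FDR = 0.188) and -0.85 (SE 0.25, FDR = 0.0713), so that neither batch alone passed the test. Against the other TF libraries of the batches in place of EV, DIN3 did not pass either (-0.48, FDR = 0.143).

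BCAT2 was lower on average with FBH3 but did not pass (log2 fold change -0.78, SE 0.28, edgeR FDR = 0.0832), and the libraries of batch 1 overlapped with EV. AT1G10090, which overlaps BCAT2 by 161 bases on the other strand, fell with FBH3 (-0.56, FDR = 0.00245). IVD had a log2 fold change of -0.92 (SE 0.35) in batch 1 and 0.22 (SE 0.35) in batch 3, and the difference of 1.19 (SE 0.49) did not pass (edgeR interaction test, FDR = 0.592). For none of the 8 genes did the FBH3 response differ between batches, with 2 at an unadjusted p under 0.05 and 0 by DESeq2, and 0.0108% of all genes did. The genes BCKDH E1A1, DIN4, MCCB and HML1 had log2 fold changes of -0.29, 0.15, -0.30 and 0.25, none of which passed.

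No further breakdown enzyme of the 16 tested passed with FBH3. Of the 11 regulators, 4 rose, beside 6.34% of all genes tested. They were bZIP63 (log2 fold change 1.11, SE 0.33, edgeR FDR = 0.033), bZIP2 (0.97, SE 0.14, FDR = 6.03e-05), bZIP44 (0.59, SE 0.16, FDR = 0.0193) and bZIP53 (0.39, SE 0.10, FDR = 0.0158). Of the 5 dark-inducible genes, DIN10 rose (1.15, SE 0.12, FDR = 1.42e-06), and the other 4 had negative values that did not pass, from -0.54 for DIN9 to -1.15 for SEN1, with a list median of -0.77. The root markers summed to between 182 and 268 CPM in FBH3 libraries of batch 1 against 40.0 to 88.1 in EV, and to between 40.7 and 55.6 CPM in batch 3 against 17.3 to 30.5. Of 6 root markers tested, PHO1 (3.25, FDR = 6.07e-07) and CASP1 (2.01, FDR = 9.37e-05) rose, and the part of the markers in the FBH3 responses was not tested.

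**Figure D4:**
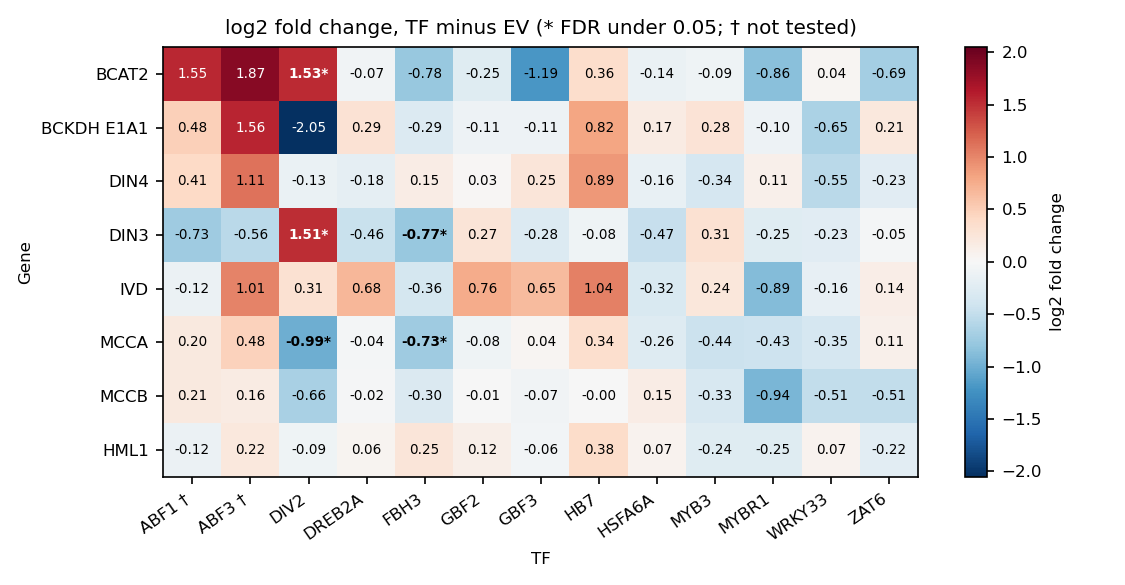
Log2 fold change of the 8 genes for each of 13 TFs against EV, with red for higher and blue for lower, an asterisk at an FDR under 0.05 and a dagger where no test was made. The 5 calls are those of DIV2 and FBH3, and DIN3 is at 1.51 with DIV2 but at -0.77 with FBH3.

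HB7, a homeodomain-leucine zipper TF, raised none of the 8 genes by the test, with 2 at an unadjusted p under 0.05, 1 called by DESeq2, and 5.52% of all genes called in either direction by edgeR. IVD was nearest. It stood at 17.1, 11.8 and 18.9 CPM with HB7 against 3.94, 8.82 and 10.8 in EV, without overlap (log2 fold change 1.04, SE 0.33, edgeR FDR = 0.0866), and DESeq2 gave it an FDR of 0.0383. IVD had positive log2 fold changes with every other TF of batch 3 too. They were 1.01 with ABF3, 0.68 with DREB2A and 0.65 with GBF3. The batch 3 libraries of GBF2 and FBH3 gave 1.14 and 0.22. The part of the shared EV group in these values was not tested.

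DIN4 was at 5.55, 5.22 and 6.49 CPM with HB7 against 2.39, 3.85 and 3.27 in EV (log2 fold change 0.89, SE 0.33, FDR = 0.16 by edgeR), and BCKDH E1A1 at 5.13, 5.04 and 5.32 CPM against 4.23, 1.36 and 3.53 (0.82, SE 0.45, FDR = 0.391). With MCCA at 22.1, 21.0 and 22.1 CPM against 15.1, 17.4 and 20.2, this made 4 of 8 genes with all HB7 libraries above EV, beside 12% of the 19496 genes tested. The same 4 genes lay above the same EV libraries with ABF3, and since the comparisons share those controls, the values are only set side by side. The root markers summed to between 32.7 and 39.9 CPM with HB7 and between 32.7 and 37.7 CPM with ABF3, above the 17.3 to 30.5 CPM of EV, with none of 8 tested passing with HB7, and their part in these values was not tested. BCAT2, in contrast, was at 7.16, 3.83 and 7.33 CPM with HB7 (log2 fold change 0.36, SE 0.34, edgeR FDR = 0.653).

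**Figure D5:**
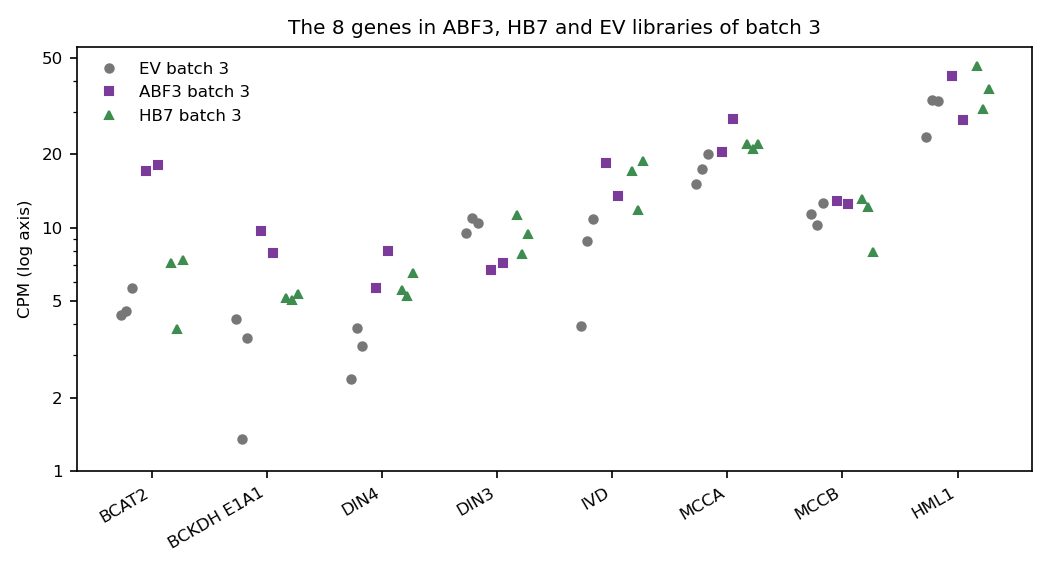
The 8 genes in CPM on a log axis in the 3 EV, 2 ABF3 and 3 HB7 libraries of batch 3, 1 point per library. BCAT2 is at 17.1 and 18.1 with ABF3 and at 3.83 to 7.33 with HB7, while BCKDH E1A1, DIN4, IVD and MCCA lie above EV with either TF.

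MYBR1 and MYB3, both MYB proteins of batch 2, gave mostly negative values but no call. With MYBR1, 11.9% of all genes were called, and 0 of the 8 were, with 2 at an unadjusted p under 0.05 and 0 by DESeq2. MCCB stood at 9.58, 4.38 and 4.0 CPM against 12.4, 12.2 and 9.55 in EV (log2 fold change -0.94, SE 0.32, edgeR FDR = 0.0722). It passed without MYBR1 replicate 1 (log2 fold change -1.44, FDR = 0.00563), the library with 78.14% of its counts in the 4 ribosomal loci, and with all libraries and the replicate number as a block (-1.01, FDR = 0.0145). IVD was at 6.68, 7.52 and 2.90 CPM against 11.6, 10.4 and 9.95, a log2 fold change of -0.89 (SE 0.40, FDR = 0.201 by edgeR), and with MCCA it made 2 of 8 genes with all MYBR1 libraries below EV, beside 17.2% of all genes.

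With MYB3, 10.6% of all genes were called and 0 of the 8, with 1 at an unadjusted p under 0.05 and 0 by DESeq2. MCCA was nearest, at 17.1, 16.2 and 18.3 CPM against 26.9, 21.7 and 21.0 in EV (log2 fold change -0.44, SE 0.19, edgeR FDR = 0.19), all below EV. In synthesis, MYB3 lowered IIL1, the large subunit of isopropylmalate isomerase (log2 fold change -0.68, FDR = 0.00565), KARI, ketol-acid reductoisomerase (-0.61, FDR = 0.0156), and AIP1 (-0.47, FDR = 0.0125). MYBR1 lowered AIP1 too (-0.70, FDR = 0.00258). Both lowered bZIP1 (-1.01 and -1.10) and raised bZIP44 (1.28 and 0.79), with FDR of at most 0.0278 in edgeR. MYB3 lowered bZIP2 as well (-0.78, edgeR FDR = 0.000758). The root markers summed to between 31.3 and 46.8 CPM with MYBR1 and between 41.9 and 47.7 CPM with MYB3, all below the 48.7 to 58.4 CPM of EV, none of them passed, and their part in these values was not tested.

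GBF2 and GBF3 are bZIP proteins named for binding the G-box. GBF2 called 10.9% of all genes and 0 of the 8, with 1 at an unadjusted p under 0.05 and 0 by DESeq2. IVD had the lowest FDR, and its values against EV of batch 3 were positive with every TF of that batch, as given above. It stood at 17.9, 16.1 and 17.2 CPM with GBF2 in batch 3 against 3.94, 8.82 and 10.8 in EV, and at 9.17, 22.5 and 9.58 CPM in batch 2 against 11.6, 10.4 and 9.95, so that the groups overlapped in batch 2 only (log2 fold change 0.76, SE 0.27, edgeR FDR = 0.0857).

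For IVD, the GBF2 libraries of batch 3 alone gave a log2 fold change of 1.14 (SE 0.31, FDR = 0.0318) and those of batch 2 alone gave 0.35 (SE 0.40, FDR = 0.712), and the pooled value passed without GBF2 batch 2 replicate 1 (FDR = 0.0419) or replicate 3 (FDR = 0.0462). The GBF2 response differed between batches for 0 of the 8 genes, with 0 at an unadjusted p under 0.05 and 0 by DESeq2, and for 6.80% of all genes. Without GBF2 batch 2 replicate 3, the MCCB difference passed (1.37, FDR = 0.0384). The root markers summed to between 15.2 and 24.5 CPM with GBF2 in batch 2 against 48.7 to 58.4 in EV, and to between 19.8 and 27.4 CPM in batch 3 against 17.3 to 30.5. None of 6 root markers tested passed with GBF2, all 6 had negative values with a median of -0.67, and their part in the GBF2 values was not tested.

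GBF3 called 0 of the 8 genes and 0.0157% of all genes, with 1 member at an unadjusted p under 0.05 and 0 by DESeq2. BCAT2 stood at 3.07, 0.811 and 2.34 CPM with GBF3 against 4.37, 4.53 and 5.67 in EV, all below EV, but did not pass (log2 fold change -1.19, SE 0.43, edgeR FDR = 0.369). Its group mean of 2.07 CPM was the lowest of the 19 groups.

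The other TFs called none of the 8 genes. DREB2A called 2.72% of all genes, WRKY33 6.22% and ZAT6 3.19%, with 0 members at an unadjusted p under 0.05 and 0 by DESeq2 for each. HSFA6A called 0.0111% of all genes, with 1 member at an unadjusted p under 0.05 and 0 by DESeq2, and its batches differed for 2.82% of all genes and for 0 of the 8, with 0 at an unadjusted p under 0.05 and 0 by DESeq2. The largest estimates were those of BCAT2 with ZAT6 (log2 fold change -0.69, SE 0.45), IVD with DREB2A (0.68, SE 0.33) and BCKDH E1A1 with WRKY33 (-0.65, SE 0.57), with an edgeR FDR of at least 0.357. ZAT6 lowered KARI of the synthesis list (-0.92, FDR = 0.00834), and WRKY33 lowered bZIP1 (-0.72, FDR = 0.00503).

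The further breakdown enzymes, 16 of them tested, passed with none of the tested TFs except DIV2. With HB7, 4 of the 16 had an unadjusted p under 0.05 by edgeR, and with MYB3 3 did. The other tested TFs called from 0.0111% (HSFA6A) to 11.9% (MYBR1) of all genes. With so few genes, 0 calls lies near such shares, and nothing particular to the list is read from it. HB7 called 1 of 14 synthesis genes tested and 2 of 11 regulators, beside 5.52% of all genes in either direction. It raised AIP1 (log2 fold change 0.51, edgeR FDR = 0.0129), bZIP2 (1.47, FDR = 7.96e-06) and bZIP44 (0.78, FDR = 0.0262). GBF2 called 1 of 13 synthesis genes, 4 of 11 regulators and 1 of 5 dark-inducible genes, beside 10.9% of all genes in either direction. Whether these lists exceed those shares was not tested. GBF2, whose root markers were low in batch 2 as given above, raised DHAD (0.49, FDR = 0.0177), bZIP44 (1.09, FDR = 0.0183), bZIP10 (0.47, FDR = 0.0488), bZIP2 (0.46, FDR = 0.023) and bZIP53 (0.36, FDR = 0.0286), and lowered DIN9, a phosphomannose isomerase gene (-1.70, FDR = 0.00771), which MYBR1 lowered as well (-1.36, FDR = 0.0102).

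Correlations between members over the groups ran from positive to negative. Of the 28 pairs of members, 21 had a positive Pearson correlation over the 19 batch-centred group means of log2 CPM, with a median of 0.24. No such share or median was taken over pairs of all genes, so whether the members move together was not tested. The highest correlation of a pair was 0.73 for BCKDH E1A1 with MCCA and the lowest was -0.52 for BCKDH E1A1 with DIN3. Over 56 libraries these were 0.50 and -0.17. Both pairs hold BCKDH E1A1, the least precise member. BCAT2 and the mean of the other 7 correlated at 0.59 over groups and at 0.34 over 56 libraries. These are descriptions, since the groups of a batch were centred on their common mean and the wells of a group shared 1 transfection. The groups also include ABF1 and ABF3, on whose high values BCAT2 was listed, so nothing is read from the correlations of BCAT2.

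Among 9559 genes with a mean log2 CPM of at least 3, those most like BCAT2 over the 19 group means were SKIP1 (Pearson r 0.85), GPAT7 (0.84), AT3G51730 (0.84), RCI2B (0.83) and CAT1 (0.81). The genes most like the mean of the other 7 members were AT3G20340 (0.83), ALDH7B4 (0.83), WES1 (0.83), BRU6 (0.82) and CEP2 (0.81). The ranking for BCAT2 includes the ABF1 and ABF3 groups on which BCAT2 was listed, and is a description only.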

How the data were processed

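Root protoplasts of Arabidopsis were profiled by RNA-seq in 56 libraries. The authors aligned reads to TAIR10 with HISAT2 (2.0.5), obtained gene counts with the GenomicFeatures and GenomicAlignments packages, and deposited these raw counts, which are not normalized. They used DESeq2 (1.22.1). The strand setting is not given in the sources used here, so reads of BCAT2, DIN4, DIN3 and MCCA cannot be told apart from those of genes that overlap them on the other strand. Of 2668 words of 50 bases in BCKDH E1A1 exons, 115 occur elsewhere in the genome, and none do for the other members.

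Each TF was compared with all 9 EV libraries by the quasi-likelihood test of edgeR (version 4.0.16 in R 4.3.3) with TMM normalization, filterByExpr with a minimum of 10 counts and batch as an additive term, which follows the TF+Batch model of the study. Benjamini-Hochberg FDR were taken over all genes tested, with a threshold of 0.05. An SE was calculated back from the test, as the absolute log2 fold change divided by the square root of its F statistic. Differences between batches were tested by the interaction of TF and batch, and EV batches by an F test. The scripts were tested on simulated data. CPM used TMM factors over all libraries, and an offset of 0.5 was added before log2 for correlations. Of 55 replicate pairs, 0 were identical. Coordinates and upstream sequences are from RefSeq's TAIR10.1 annotation.

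The members and gene lists were chosen with earlier results of these data known. Named genes were the 8 members, at most 4 called genes per list and TF with the largest absolute log2 fold change, and the 5 genes most like BCAT2 and most like the mean of the others. Root markers are given where their summed level lay apart from EV, and an overlapping neighbour where it passed the test. Alternatives tried were DESeq2 (1.42.0), its size factors, no filter, EV of the same batch only, other TF libraries as control and the replicate block. Each library was also left out in turn, and TF libraries of 1 batch alone were compared with all 9 EV libraries. Removal of 4 ribosomal DNA loci was chosen after seeing the data. The filter of the study on genes that respond to CHX was not repeated.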

Additional observations from a re-analysis of the deposited data

Results flagged for a closer look

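In 1 of 32 sets of 6 or 9 libraries checked for an extreme value, GBF2 replicate 2 of batch 2 stood apart for DIN4, at 8.45 CPM against 2.75 to 4.06 CPM in the other 5 GBF2 libraries. Chance alone gives such a gap in about 1 of 20 sets. The DIN4 response to GBF2 did not pass the test (log2 fold change 0.03, SE 0.30, edgeR FDR = 0.975).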

How the results depend on the processing

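When single libraries were left out, the 3 DIV2 calls and the 2 FBH3 calls kept their direction and passed in every fit, with FDR of at most 0.0326, and BCAT2 with DIV2 ran from 1.35 to 1.76 on the log2 scale. The count of members called ran from 0 to 1 for GBF2 (IVD without replicate 1 or 3 of batch 2), for MYBR1 (MCCB without replicate 1) and for the GBF2 batch difference (MCCB without replicate 3 of batch 2), BCKDH E1A1 passed with DIV2 without its replicate 2 (FDR = 0.0463), and BCAT2 with ABF3 ran from 1.79 to 2.00. Against all 9 EV libraries, the FBH3 libraries of batch 1 alone gave 1 call and those of batch 3 alone gave 0. The GBF2 libraries of batch 3 alone gave 1. For HB7, DESeq2 and the fit with no filter each called 1, which was IVD. For MYB3, EV of the same batch only called 1, which was MCCA. With other TF libraries as control, DIN3 with FBH3 no longer passed (-0.48, FDR = 0.143), IVD with FBH3 passed (-0.74, FDR = 0.000645), MCCA with DIV2 was at -0.62 (FDR = 0.0452), and BCAT2 was at 1.96 with ABF1 and 2.1 with ABF3. Over 56 libraries the correlation of BCAT2 with the other members was 0.34. The cause of these changes was not tested. The 4 ribosomal RNA genes listed for removal could not be removed, since the count tables used here do not list them. Removal of the 4 loci beside them, chosen after seeing the data, changed no call of a member. CPM from library totals without these loci used no TMM factors, so that the totals and the scaling changed together. These CPM gave higher EV means, for BCAT2 7.64 in place of 5.95 CPM, and the part of each change was not tested.

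With the replicate number as a block (replicate block), DIV2 had 4 calls, with BCKDH E1A1 added (FDR = 0.0448), MYB3 had 1 (MCCA, FDR = 0.0465) and MYBR1 had 2 (IVD, FDR = 0.0268, and MCCB, FDR = 0.0145), and BCAT2 with ABF3 was at 2.00. Same-numbered TF and EV libraries correlated between -0.0992 and 0.316 in their deviations, and in 2 of 15 groups of 3 pairs every library correlated best with its own number, so the numbers were not taken to pair libraries.

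Depth limits BCKDH E1A1 most, with a median of 60 counts a library. Most TFs were assayed in 1 batch, where TF and transfection cannot be told apart.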
